A study of Mus musculus and Homo sapiens with 4 samples.

Results

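Glycolysis and lactate metabolism in the VCaP libraries were described through 33 genes: glucose transporters, the enzymes that convert glucose to pyruvate, the enzymes that set phosphofructokinase activity, lactate dehydrogenases, lactate transporters, and pyruvate dehydrogenase with its kinases. Members were chosen by gene symbol and not by a cut on their values, but with earlier results of these data known. Each symbol was looked up in the symbol field of the 25932 entries of the deposited files, and the entry of highest mean RPKM (read density per unit of length, scaled to all mapped reads) was taken. All 33 symbols were found. For PDK1 this choice led to the entry of PDPK1, another kinase that carries PDK1 as an alias (6.38 and 3.80 RPKM in the VCaP and VCaP ERα libraries), so the entry described as pyruvate dehydrogenase kinase isozyme 1 was used instead.

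VCaP is a prostate cancer cell line, and VCaP ERα is the same line made to overexpress oestrogen receptor alpha (ERα). The pair was compared in the study to find genes downstream of ERα. Each condition gave 1 library of total RNA, depleted of ribosomal RNA and prepared with the strand kept, from cells at passages 5 to 6 (VCaP) and 4 to 5 (VCaP ERα) grown in DMEM with fetal bovine serum. The labels name no added hormone, and whether the ERα cells are 1 clone or a pool is not given in the sources used here. The number of reads is not given either, so no interval for counting error was computed. With a single library of each, the conditions could not be tested against each other and every difference below lacks a replicate check. The RPKM values summed to 267630 in VCaP and 196948 in VCaP ERα.

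The labels were checked first. ESR1, the gene of ERα, stood at 15.7 and 209 RPKM in VCaP and VCaP ERα, in the direction of the labels. Genes that define prostate luminal cells did not follow the label of the first library. The summed level of 12 such genes was 20.3 RPKM in that library, where KLK4 and FOLH1 were listed at 0, and 2221 RPKM in VCaP ERα. ERG, which VCaP cells express from the TMPRSS2-ERG fusion, had 0.0764 RPKM there and 104 RPKM in VCaP ERα. In the opposite direction, 8 breast luminal genes (ESR1 among them) summed to 2509 RPKM in that library and 530 RPKM in VCaP ERα, with the oestrogen-responsive TFF1 at 1596 and 7.00 RPKM. These values go against its label, so whether this library holds RNA of VCaP cells is uncertain, and each ratio below compares VCaP ERα with a library that may be of other cells. For this reason it is called the VCaP-labelled library. Basal epithelial genes (n = 5) summed to 50.1 and 2.85 RPKM, with KRT17 at 38.9 and 0.774 RPKM. This list was mixed: 3 genes were lower in VCaP ERα and 2 were higher. The higher ones were KRT5 (0.0259 and 0.623 RPKM) and KRT14 (0 and 1.19 RPKM). Neuroendocrine genes (n = 5, with the member ENO2) summed to 1.84 and 14.5 RPKM. Fibroblast genes (n = 5) summed to 1.00 and 1.84 RPKM, leukocyte genes (n = 4) to 0.846 and 0.535 RPKM and erythroid genes (n = 4) to 0.0559 and 0.462 RPKM. The part of these differences in the results below was not tested, and a difference between conditions cannot be told apart from one between cultures. In bulk RNA, fewer cells of a type and less RNA per cell also cannot be told apart.

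Glycolysis splits glucose into pyruvate in the cytosol. Pyruvate is then either reduced to lactate by lactate dehydrogenase, a tetramer of LDHA and LDHB subunits, or oxidized in mitochondria by the pyruvate dehydrogenase complex, which the PDK kinases switch off. LDHA-rich tetramers are known for favouring lactate formation and LDHB-rich tetramers for favouring the use of lactate. Many steps have several isozymes that differ between tissues, and RPKM, being a value per length, allows their levels to be compared within a library.

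Changes are given as the log2 ratio of VCaP ERα over the VCaP-labelled library after 1 was added to each RPKM value, which understates the change of low genes. Where a pair of values is given, that of the VCaP-labelled library comes first. The 12344 entries with a mean of at least 1 RPKM had a median log2 ratio of -0.61, and the 9754 entries that reached 1 RPKM in each library had a median of -0.59. A typical expressed entry was therefore lower in VCaP ERα, and the centred log2 ratio, from which -0.59 was subtracted, gives a change relative to it. The 33 members had a median log2 ratio of -0.56, or 0.03 when centred. The 28 members with a mean of at least 1 RPKM had a median of -0.84, below the -0.61 of the entries on the same filter.

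The members under that mean were SLC2A3, PGAM2, ENO3, LDHC and PDK4, and no member was left out of the values below. Of the 33 members, 2 had a log2 ratio above 2 (LDHB and SLC16A1, 6.06% of members) and 6 had one below -2 (SLC2A1, SLC2A10, PFKL, ALDOA, PFKFB3 and ENO1, 18.2%). The background was 2.27% of all entries above 2 and 6.56% below -2, or 4.76% and 13.8% of the entries with a mean of at least 1 RPKM. Counts at this threshold depended on scaling: centring gave 5 members above 2 and 3 below -2 (background 4.77% and 3.35% of all entries, or 9.02% and 7.03% of those with a mean of at least 1 RPKM), and quantile normalization gave 3 and 4 (background 3.87% and 3.84% of all entries, or 8.13% and 8.08% of those with that mean). At a log2 ratio of 1, 5 members (15.2%) were above and 13 (39.4%) were below -1, against 9.16% and 18.5% of all entries and 12.7% and 37.7% of the entries with a mean of at least 1 RPKM. Among the 28 members with such a mean, 7.14% were above 2 and 21.4% below -2, and 10.7% were above 1 and 46.4% below -1. On this filter, centring gave 10.7% above 2 and 10.7% below -2, and quantile normalization gave 10.7% and 14.3%. As deposited, the shares below -2 and below -1 on this filter were above the background and the share above 1 was below it. These are differences of a few genes that were not tested. What follows is a description of single genes and of isozymes within a family, not of the pathway as a unit.

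**Figure D1:**
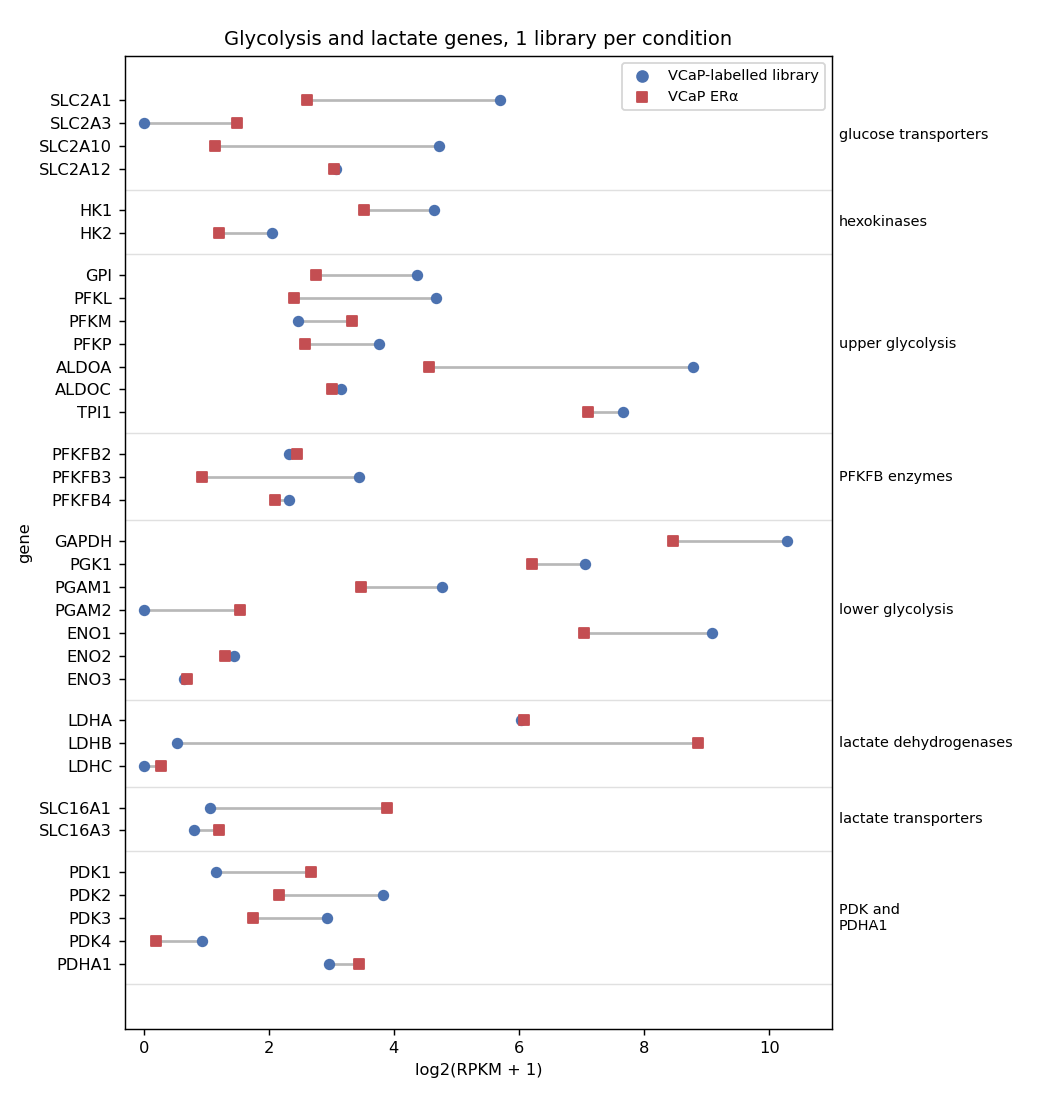
Level of each of the 33 genes, as log2(RPKM + 1) on the horizontal axis, in the VCaP-labelled library (blue circles) and in VCaP ERα (red squares), 1 library each, grouped by role; a grey line joins both values of a gene. LDHB moves from 0.455 to 462 RPKM while LDHA stays at 64.5 and 66.3 RPKM, and ALDOA moves the other way, from 440 to 22.6 RPKM.

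LDHB differed more than any other of the 33 genes. LDHB (chromosome 12, 21679543 to 21702043; coordinates are those of the files, for which the submitters' notes name hg18 as the human build) had 0.455 RPKM in the VCaP-labelled library against 462 in VCaP ERα, a log2 ratio of 8.31. By level it ranked 13167 among all entries in the first library and 47 in the second. LDHA (chromosome 11, 18372558 to 18385974) had 64.5 and 66.3 RPKM, a log2 ratio of 0.04 (0.63 when centred). The muscle-type subunit LDHA thus had similar deposited values in both libraries, while the heart-type subunit LDHB was below 1 RPKM in the first and among the most abundant entries in the second. LDHC, the testis isozyme, was listed at 0 in the first library and had 0.219 RPKM in the second.

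Within each library the isozyme order was opposite. LDHA exceeded LDHB 142-fold in the VCaP-labelled library, where LDHA made up 99.3% of the summed lactate dehydrogenase RPKM and LDHB 0.701%. In VCaP ERα LDHB exceeded LDHA 6.97-fold, with 87.4% for LDHB and 12.5% for LDHA. These shares do not depend on how the libraries were scaled against each other, and after quantile normalization LDHB held 1.14% and 86.1%. The summed level of the isozymes was 64.9 RPKM and 529 RPKM, so it was 8.15-fold higher in VCaP ERα. LDHB alone held 34.0% of the summed RPKM of all 33 members in VCaP ERα and 0.0159% in the other library. Lactate dehydrogenase genes have near-identical processed copies in the genome, and how reads matching several copies were counted is not given in the sources used here. The same holds for GAPDH, PGK1, PGAM1, TPI1, ENO1 and ALDOA.

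**Figure D2:**
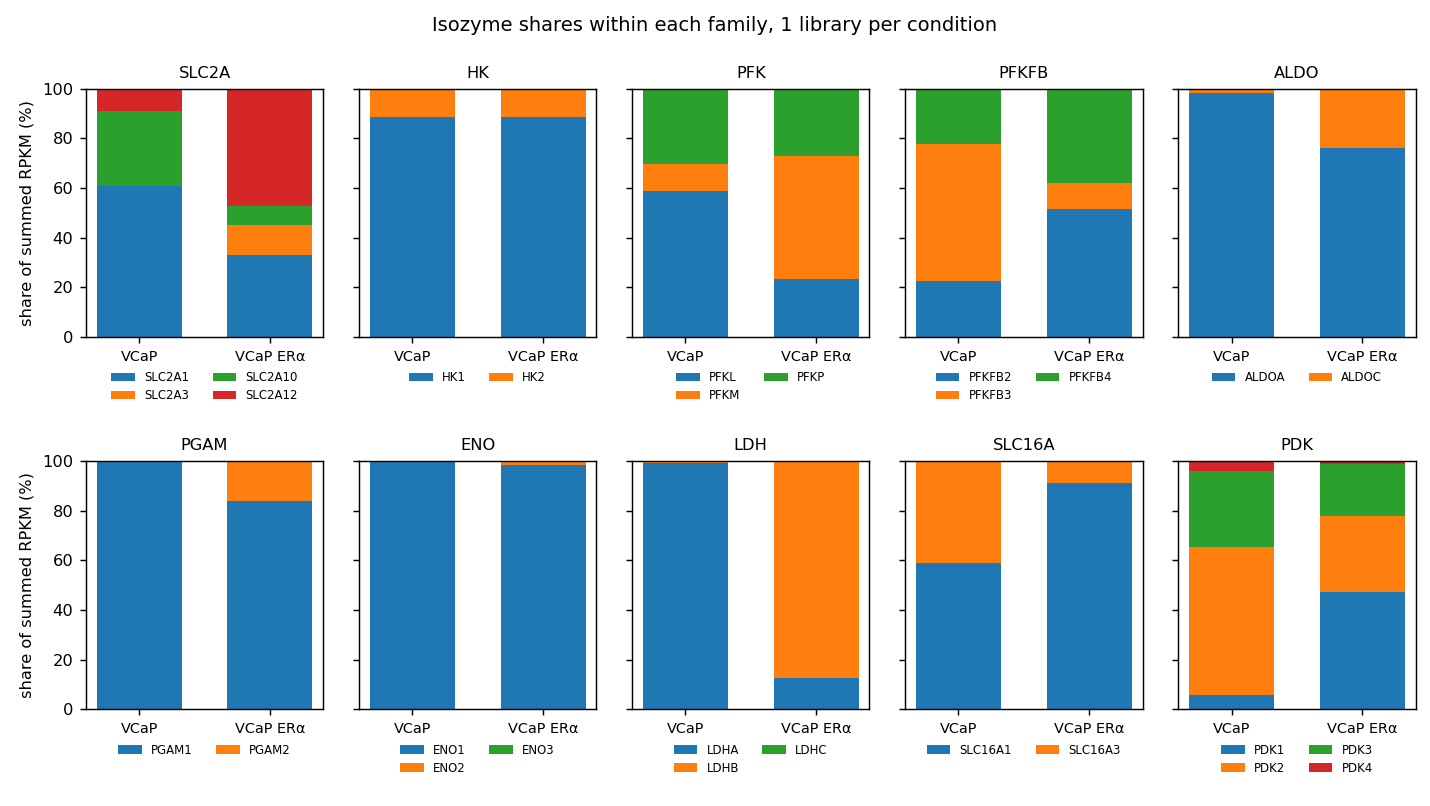
Share of each isozyme in the summed RPKM of its family (vertical axis, %) for 10 families, with 1 bar for the VCaP-labelled library and 1 for VCaP ERα; colours mark the isozymes named under each panel. Only members are counted in a family. The LDH bars are 99.3% LDHA and 87.4% LDHB, whereas the HK bars are alike, with 88.4% and 88.8% HK1.

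The member lactate transporters, SLC16A1 and SLC16A3, were also higher in VCaP ERα. SLC16A1 (chromosome 1, 113255993 to 113300498), which encodes MCT1, a carrier of lactate and pyruvate across the plasma membrane, had 1.08 RPKM in the VCaP-labelled library against 13.8 in VCaP ERα, a log2 ratio of 2.83. SLC16A3, which encodes the lactate exporter MCT4, had 0.749 and 1.31 RPKM, a log2 ratio of 0.40. MCT1 thus made up 59.0% of the pair's summed RPKM in the first library and 91.3% in the second. The SLC16A3 entry shares 65.3% of its span with that of CSNK1D (15.3 and 5.02 RPKM), and whether strand was used in counting is not given in the sources used here. BSG and EMB, genes of the proteins that carry these transporters to the membrane, went the other way. BSG had 133 RPKM in the VCaP-labelled library against 19.3 in VCaP ERα, a log2 ratio of -2.73, and EMB had 18.1 and 3.05 RPKM, a log2 ratio of -2.23 (-1.64 when centred). SLC16A7, the gene of the high-affinity carrier MCT2, had 3.68 and 0.0480 RPKM, a log2 ratio of -2.16 (-1.57 when centred). It is not a member and was not counted with SLC16A1 and SLC16A3, whose sum in the VCaP-labelled library was lower, at 1.83 RPKM. SLC16A1 and the genes of its ancillary proteins thus differed in opposite directions.

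At the entry of the pathway, the RPKM of the 4 member glucose transporters summed to 83.3 in the VCaP-labelled library and 15.4 in VCaP ERα. Other SLC2A genes are not in this sum or in the shares below. SLC2A1 (chromosome 1, 43163633 to 43197434), which encodes GLUT1, the transporter of basal glucose uptake in most cells, had 50.6 and 5.12 RPKM, a log2 ratio of -3.07 (-2.48 when centred). SLC2A10 (GLUT10; chromosome 20, 44771686 to 44798392) had 25.3 and 1.20 RPKM, a log2 ratio of -3.58 (-2.99 when centred). Both remained below -2 under each scaling tried. SLC2A12 (GLUT12) had 7.38 and 7.29 RPKM, a log2 ratio of -0.02. It became the largest part of the sum of these members, from 8.87% to 47.2%, as SLC2A1 went from 60.7% to 33.2%. SLC2A3, the gene of the high-affinity neuronal transporter GLUT3, was listed at 0 in the first library and had 1.82 RPKM in the second. Its near-identical paralog SLC2A14, named after its values were seen, was listed at 0 and had 0.134 RPKM, so reads could be shared between them.

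Hexokinase, which traps glucose in the cell, was the family whose composition differed least. HK1 had 24.0 and 10.4 RPKM, a log2 ratio of -1.13 (-0.54 when centred), and HK2, the inducible isozyme of many tumours, had 3.13 and 1.32 RPKM, a log2 ratio of -0.83 (-0.24 when centred). HK1 exceeded HK2 7.65-fold in the VCaP-labelled library and 7.91-fold in VCaP ERα. GPI, which makes fructose phosphate, had 19.7 and 5.75 RPKM, a log2 ratio of -1.62.

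Phosphofructokinase, the committed step, had a different leading isozyme in each library. PFKL, the liver type, had 24.5 and 4.31 RPKM, a log2 ratio of -2.26 (-1.67 when centred and -1.52 after quantile normalization, no longer below -2). PFKM, the muscle type, had 4.55 RPKM in the VCaP-labelled library against 9.06 in VCaP ERα, a log2 ratio of 0.86. PFKP, the platelet type, had 12.6 and 5.00 RPKM, a log2 ratio of -1.18. The order was therefore PFKL, PFKP, PFKM in the first library and PFKM, PFKP, PFKL in the second, with PFKM going from 10.9% to 49.3% of the family and PFKL from 58.8% to 23.4%. In VCaP ERα the levels of PFKP and PFKL were close together, and without replicates their order is a bare difference of values.

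The PFKFB enzymes make and degrade the allosteric activator of phosphofructokinase. PFKFB3, whose product mainly makes it, had 9.90 RPKM in the VCaP-labelled library against 0.909 in VCaP ERα, a log2 ratio of -2.51 (-1.92 when centred). PFKFB2 had 4.00 and 4.46 RPKM and PFKFB4 had 4.00 and 3.30 RPKM, log2 ratios of 0.13 and -0.22. Their deposited levels were alike in both libraries, but when centred they were at 0.72 and 0.37. PFKFB3 went from 55.3% to 10.5% of the family.

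Aldolase, which splits the sugar into a pair of triose phosphates, was the step that was most reduced. ALDOA (chromosome 16, 29971973 to 29989236) had 440 RPKM in the VCaP-labelled library against 22.6 in VCaP ERα, 19.5-fold less, with a log2 ratio of -4.23 (-3.64 when centred). It ranked 58 by level in the first library and 1368 in the second. ALDOC, the brain type, had 7.91 and 7.02 RPKM, so its share of aldolase went from 1.77% to 23.7%. TPI1, the next enzyme, had 202 and 137 RPKM, a log2 ratio of -0.56, or 0.03 when centred. ALDOA thus exceeded TPI1 2.18-fold in the first library, while TPI1 exceeded ALDOA 6.07-fold in VCaP ERα.

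The later enzymes were lower in VCaP ERα to unequal extents. GAPDH, often used as a reference gene, had 1237 RPKM in the VCaP-labelled library, where it ranked 11 of all entries, and 352 RPKM in VCaP ERα, where it ranked 64. Its log2 ratio was -1.81, or -1.22 when centred. ENO1, the ubiquitous enolase, had 540 and 130 RPKM, a log2 ratio of -2.05 (-1.46 when centred). PGK1 and PGAM1, which act between these enzymes, had smaller differences. PGK1 had 131 and 72.4 RPKM, a log2 ratio of -0.85, and PGAM1 had 26.3 and 10.1 RPKM, a log2 ratio of -1.30. Minor isozymes stayed low throughout: ENO2, the neuronal enolase, had 1.73 and 1.47 RPKM, and ENO3, the muscle enolase, had 0.564 and 0.618 RPKM. PGAM2, the muscle mutase, was listed at 0 in the first library and had 1.91 RPKM in the second, 15.9% of the family there.

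**Figure D3:**
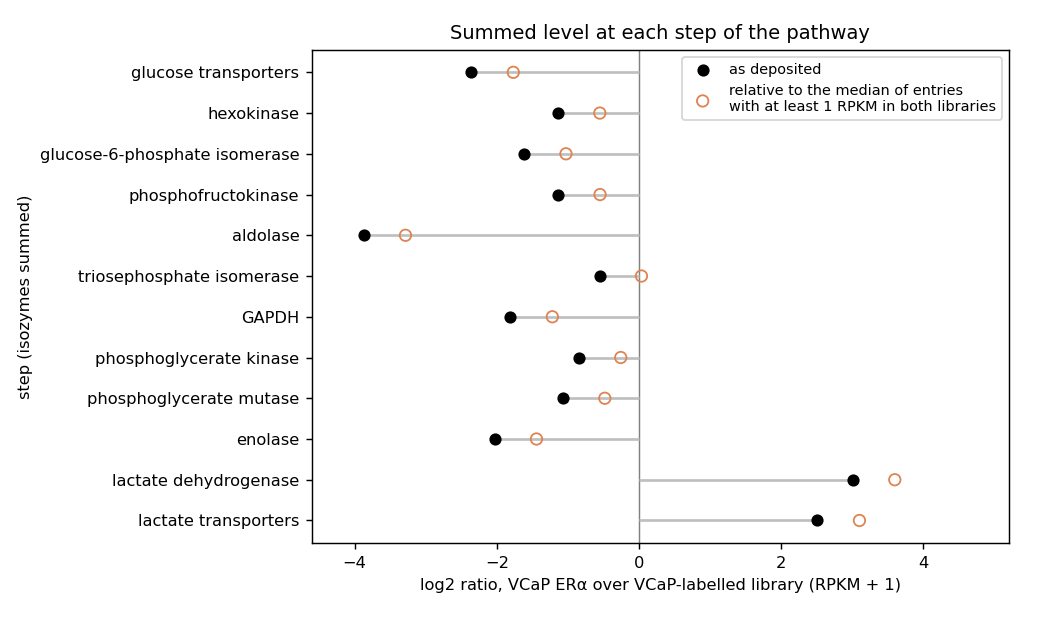
Log2 ratio of VCaP ERα over the VCaP-labelled library (horizontal axis, RPKM + 1) of the summed isozymes at 12 steps; filled points are the values as deposited and open points are relative to the median of entries that reached 1 RPKM in each library. Only members are summed, so the lactate transporters are SLC16A1 and SLC16A3. The glucose transporters and the enzymes from hexokinase to enolase lie at or below -0.56 as deposited, with aldolase at -3.88. Lactate dehydrogenase and the lactate transporters lie at 3.01 and 2.51. Triosephosphate isomerase moves to 0.03 when centred.

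Summed over isozymes, the levels at the first 10 steps, from glucose transport to enolase, were lower in VCaP ERα as deposited, with log2 ratios from -3.88 for aldolase to -0.56 for triosephosphate isomerase. After centring, triosephosphate isomerase was at 0.03 and the other 9 stayed below 0. A sum is weighted to its most abundant isozyme. Of single entries with a mean of at least 1 RPKM, 68.8% were below 0 as deposited and 50.9% when centred. Of the 33 members taken singly, 21 were below 0 as deposited and 16 when centred, with 12 and 17 above. These differences were not tested. Lactate dehydrogenase (log2 ratio 3.01) and the sum of the lactate transporters SLC16A1 and SLC16A3 (2.51) were higher on both scales. SLC16A7, which was lower in VCaP ERα, is not in this sum. All 33 genes together summed to 2871 RPKM in the VCaP-labelled library, 1.07% of its RPKM total, and to 1360 RPKM in VCaP ERα, 0.690% of its total. Without LDHB the sums were 2870 and 897 RPKM.

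The fate of pyruvate is set in part by the PDK kinases, which phosphorylate and inactivate the E1 alpha subunit encoded by PDHA1. PDK1 (chromosome 2, 173129025 to 173172108), a target of the hypoxia-inducible factor HIF-1, had 1.23 RPKM in the VCaP-labelled library against 5.39 in VCaP ERα, a log2 ratio of 1.52. PDK2, a widely expressed isozyme, had 13.2 and 3.47 RPKM, a log2 ratio of -1.67. PDK2 therefore led in the first library, with 60.0% of the family, and PDK1 in VCaP ERα, with 47.4%. PDK3 had 6.66 and 2.37 RPKM, a log2 ratio of -1.19, and PDK4, the isozyme of fasting, had 0.905 and 0.144 RPKM, a log2 ratio of -0.74. PDHA1 itself had 6.81 and 9.82 RPKM, a log2 ratio of 0.47. The summed RPKM of the 4 kinases and PDHA1 was 28.8 and 21.2, 0.0108% of the RPKM total in each library.

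Other genes of the pathway were taken from 8 lists of 86 genes in all, of which 3 had a log2 ratio above 2 (3.49%) and 12 one below -2 (14.0%). The background was 2.27% and 6.56% of all entries. Of the 59 listed genes with a mean of at least 1 RPKM, 5.08% and 20.3% were past the threshold, against 4.76% and 13.8% of entries with that mean. These differences were not tested. Pyruvate kinase, the last step of glycolysis, is annotated as PKM2 on a pair of overlapping entries. The entry of highest mean had 519 RPKM in the VCaP-labelled library against 69.3 in VCaP ERα, a log2 ratio of -2.89, and the longer entry had 436 and 45.5 RPKM, a log2 ratio of -3.23. Pyruvate kinase was thus lower in VCaP ERα like the enzymes before it. Of the 16 other glycolysis enzymes, PKM2 was below -2 and none was above 2 as deposited. Among 15 other hexose and lactate transporters, SLC16A7, BSG and EMB, described above, were below -2 and none was above 2 as deposited. Of these, BSG alone remained below -2 when centred and after quantile normalization. HK3 and SLC2A5 of these lists, named after their values were seen, were at 2.12 and 2.01 when centred. After quantile normalization they were at 1.81 and 1.49.

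Genes of the pyruvate dehydrogenase complex and the mitochondrial pyruvate carrier mostly had log2 ratios above 0. Of 11 genes, 8 had a log2 ratio above 0 and 2 below (10 and 1 when centred, 9 and 2 after quantile normalization), with a median of 0.79 against -0.61 for entries with a mean of at least 1 RPKM. Of the entries with that mean, 31.2% were above 0 as deposited, 49.1% when centred and 48.4% after quantile normalization. On that filter 10 genes of the list were left, with 8, 9 and 9 of them above 0. BRP44, which encodes the carrier subunit now called MPC2, had 15.4 and 158 RPKM, a log2 ratio of 3.27. The other genes of this list were named after their values were seen. BRP44L, the gene of the other carrier subunit MPC1, had 3.06 and 9.09 RPKM, a log2 ratio of 1.31. In the complex, PDHX had 10.1 and 26.5 RPKM, DLAT had 5.62 and 13.2 RPKM, and PDHB had 45.3 and 82.5 RPKM. Their log2 ratios were 1.31, 1.10 and 0.85. PDPR, whose product regulates the phosphatase that reactivates the complex, had a log2 ratio of -1.41.

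The lists of branches that leave glycolysis held 24 genes, of which 4 (16.7%) had a log2 ratio below -2 and none one above 2. The background was 6.56% of all entries below -2 and 2.27% above 2. When centred, and also after quantile normalization, 3 of the 24 (12.5%) were below -2 and 2 (8.33%) above 2. The background was then 3.35% and 4.77% of all entries when centred, and 3.84% and 3.87% after quantile normalization. Of the 19 branch genes with a mean of at least 1 RPKM, 21.1% were below -2, against 13.8% of entries with that mean. These are differences of a few genes that were not tested. TKT, the transketolase of the pentose phosphate pathway, had 142 RPKM in the VCaP-labelled library against 12.9 in VCaP ERα, a log2 ratio of -3.35, and 6 of the 7 genes of that list had a log2 ratio below 0, or 4 when centred and 4 after quantile normalization, against 68.8%, 50.9% and 51.6% of entries with that mean. FBP1, the gluconeogenic enzyme that opposes phosphofructokinase, had 102 and 5.16 RPKM, a log2 ratio of -4.07, and of the 7 gluconeogenesis genes it alone was past the threshold. Of 10 glycogen genes, the phosphorylases PYGB (25.2 and 3.93 RPKM) and PYGL (7.40 and 0.369 RPKM) were below -2 as deposited. None was above 2 as deposited. PYGB was at -1.82 when centred. PYGM and PGM1 of this list, named after their values were seen, were above 2 when centred (2.49 and 2.08). They were also above 2 after quantile normalization (2.09 and 2.11).

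The hypoxia-inducible factors raise many glycolytic genes. HIF1A had 79.1 and 57.0 RPKM, a log2 ratio of -0.47 (0.12 when centred). ARNT, its partner, had 21.9 and 3.37 RPKM, a log2 ratio of -2.39 (-1.80 when centred). All 8 genes of the regulator list, each with a mean of at least 1 RPKM, had a log2 ratio below 0, or 6 when centred and 6 after quantile normalization, against 68.8%, 50.9% and 51.6% of entries with that mean. Among 12 targets outside glycolysis, the values went both ways. NDRG1 had 4.61 and 119 RPKM, a log2 ratio of 4.42, and ANKRD37 had 0.624 and 19.1 RPKM, a log2 ratio of 3.63. P4HA2, a collagen prolyl hydroxylase, had 19.8 and 1.19 RPKM, a log2 ratio of -3.25, and DDIT4, an inhibitor of mTORC1, had 29.1 and 5.99 RPKM, a log2 ratio of -2.11 (-1.52 when centred). BNIP3L, a mitophagy receptor, had 41.5 RPKM in the VCaP-labelled library and was listed at 0 in VCaP ERα.

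**Figure D4:**
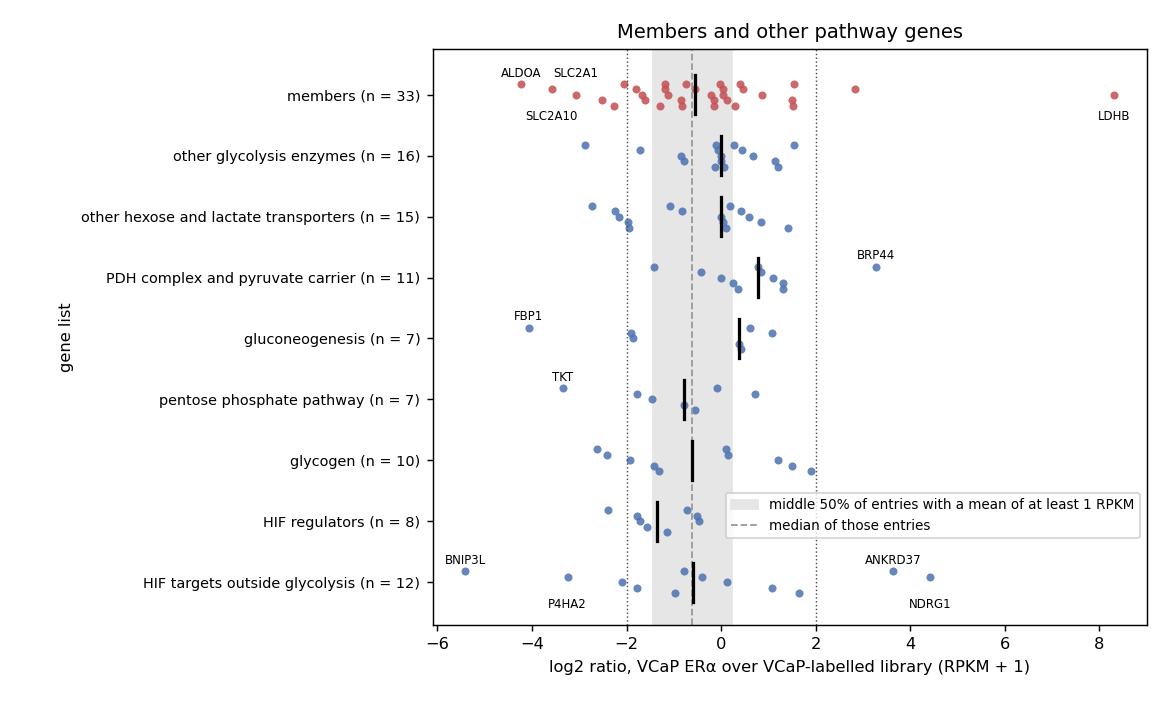
Log2 ratio of VCaP ERα over the VCaP-labelled library (horizontal axis, RPKM + 1) of each gene, for the 33 members (red) and 8 lists of other pathway genes (blue); black bars are list medians, the grey band holds the middle 50% of entries with a mean of at least 1 RPKM (-1.44 to 0.24), the dashed line is their median (-0.61) and dotted lines mark -2 and 2. The members spread from ALDOA at -4.23 to LDHB at 8.31, around a median of -0.56.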

How the data were processed

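RNA-seq values of the VCaP-labelled library and of VCaP ERα (1 each) were analysed; 2 mouse fibroblast libraries of the series were not used here. The authors computed and deposited RPKM values for 25932 entries, identical in order and annotation in both files, with no normalization between libraries stated. The submitters' notes name CASAVA 1.8 and the build hg18; the counting tool, its use of strand and the read totals are not given in the sources used here, so precision from depth is unknown.

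A pseudocount of 1 was added before log2 ratios were taken, and entries above 2 or below -2, and above 1 or below -1, were counted, without a filter. Isozyme shares were computed from RPKM within a library, over the members of a family only. All 33 members were named; of the other lists, genes past a log2 ratio of 2 in either direction, PKM2, BSG, HIF1A, ESR1 and the markers could be named, and others are marked as chosen later. Members and lists were chosen with earlier results of these data known. With 1 library per condition no test was made. The alternatives were a pseudocount of 0.1, centring, quantile normalization, summed entries of a symbol and a minimum mean of 1 RPKM. Equal RPKM sums, the other PDK1 entry, and every alternative for the 8 lists were added after the data were seen. Counts within 1.5 times, log2 ratios within 0.585 and shares within 5 percentage points of the original were taken as unchanged. Promoter motifs were not searched, because a human reference was not used here. From the pathway lists, 1 gene is not reported here and was left out of their counts. The scripts were tested on simulated data. The work was done in Python (3.11.15) with pandas (2.3.3) and numpy (2.4.6), and plots were drawn with matplotlib (3.10.9).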

Additional observations from a re-analysis of the deposited data

How the results depend on the processing

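The LDHA and LDHB shares moved by less than 5 percentage points after quantile normalization. Summing entries could not move them, because each of these genes has 1 entry, and shares were not recomputed under the other alternatives. The log2 ratio of LDHA to LDHB in the VCaP-labelled library went from 5.49 to 6.86 with a pseudocount of 0.1. Members above 2 numbered 2 as deposited, 5 with a pseudocount of 0.1 and 5 when centred. Those below -2 went from 6 to 3 when centred. Members above 1 went from 5 to 3 when only members with a mean of at least 1 RPKM were kept, and those below -1 from 13 to 7 after quantile normalization. The members' median log2 ratio was 0.034 when centred. In the 8 other lists, the counts above 2 and below -2 (3 and 12) were 16 and 23 with a pseudocount of 0.1, 7 and 7 after quantile normalization and 8 and 7 when centred, and the count above 2 was 5 with equal RPKM sums. With the PDPK1 entry in its place, PDK1 had a log2 ratio of -0.62 instead of 1.52. Over the alternatives, 10 members kept a log2 ratio above 0, 16 kept one below 0 and 7 changed sign, PDK1 because another gene's entry replaced it and SLC2A12, ALDOC, TPI1, PFKFB4, ENO2 and ENO3 through scaling. No promoter motifs could be searched, and no paired analysis was possible because each condition has 1 library. Depth is unknown, so low values such as those of LDHC carry no interval.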

Other observations

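The members lie on 14 chromosomes, with 6 of them on chromosome 12 (SLC2A3, PFKM, TPI1, GAPDH, ENO2 and LDHB). The neighbours of 3 members past the threshold, chosen after their values were seen, were compared with the member itself. Of the 10 entries nearest to LDHB, 5 on each side, none had a log2 ratio above 2 or below -2, and they ranged from -0.39 (RECQL) to 0.94 (GOLT1B). Only 4 of these 10 had a mean of at least 1 RPKM, and with a pseudocount of 1 the others could hardly pass the threshold. Near SLC16A1, the 10 entries, 3 of them with such a mean, had a median of -0.07. RHOC, among these entries, had 138 RPKM in the VCaP-labelled library against 9.61 in VCaP ERα. Near ALDOA, 6 of the 10 entries had such a mean. The 10 entries had a median of -1.12, and 3 of them were below -2: GDPD3 (-4.02), the phosphatase gene PPP4C (-3.88) and YPEL3 (-3.56). The background was 6.56% of all entries below -2, or 13.8% of those with such a mean. ENO3, also looked at after its values were seen, was itself at 0.05. Of its 10 nearest entries, 4 were below -2, and their median was -1.26. Local differences were not tested.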
